A study of Mus musculus with 12 samples.

Results

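The regions described here are stretches of open chromatin at boundaries that belong to more than 1 gene. They were found by ATAC-seq, which cuts open chromatin with the Tn5 transposase, in murine ER-Hoxa9-Lys-GFP cells. Each has its midpoint within 1000 bases of a start or end of 2 or more different protein-coding genes of GRCm38. Of 16028 regions in the union of 6 peak lists, 1355 met this rule. Their boundaries came from 2 genes in 1327 regions and from 3 genes in 28 regions. A further 6306 regions lay at the boundary of exactly 1 gene, and 8367 lay at none.

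The cells are a C57BL/6 line with a conditional Hoxa9 fused to the estrogen receptor, which holds myeloid progenitors immature while estradiol (E2) is present. All groups carry the fusion and the lysozyme-GFP reporter, and were grown with stem cell factor conditioned medium. One group had E2 throughout and another had none for 120 h. In between, E2 was withdrawn for 24, 40, 56 or 72 h and then given back for 96, 80, 64 or 48 h, so the withdrawal and add-back times change together. Each group has 2 libraries but 1 list of peak positions, and the extraction notes describe splitting the nuclei of 1 preparation into a pair of transposition reactions. No list gives a score, a count or a depth, so depth is unknown, no spread between replicates can be set beside any value, and no test between groups was possible. Intervals below are 95% intervals (Wilson for a share, Newcombe for a difference of shares, in percentage points) and cover counting error over regions only.

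After cleaning, the lists held 13165, 11465, 9940, 8989, 9581 and 7987 peaks, in the order continuous E2, the 4 add-back groups from the shortest withdrawal to the longest, and 120 h without E2. All lists are set out in this order below, which is an order of separate groups and not a time course. Of 5 progenitor marker genes (Meis1, Cd34, Flt3, Kit and Myb), 5, 5, 5, 4, 3 and 2 had a peak. Of 6 granulocyte precursor genes, the secretory granule genes Elane, Prtn3 and Ctsg and the maturation factor Cebpe had none in any list, Mpo had 1 up to the 40 h withdrawal list, and Csf3r had 1 in the 72 h and 120 h lists. Erythroid Klf1 had a peak in 4 lists and B-lineage Pax5 in 3, whereas Gata1 and Cd3e had none.

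Mammalian genomes hold many gene pairs that start close together on opposite strands. The stretch between such head-to-head starts can serve as a bidirectional promoter, often within a CpG island, and it can carry binding sites that serve both genes. Pairs of this kind are common among genes for DNA repair, mitochondria and core metabolism, and among the histone gene clusters. A second kind of shared boundary arises where 1 gene ends just upstream of the start of the next.

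The stretches between paired starts show how compact these elements can be. They are printed from RefSeq on the plus strand of GRCm38.p6, each running from the base after the start of the minus-strand gene to the base before the start of the plus-strand gene. Capitals mark matches, on either strand, to any of 11 motif strings. For ETS factors a long string, CCGGAAGT, and a short one, CGGAAG, were searched. For NFY the string was the CCAAT box, and for SP/KLF zinc fingers it was the GC box string GGGCGG. The other strings were GCATGCGC for NRF1, AAGATGGC for YY1, TTTGGCGC and TTTCCCGC as forms 1 and 2 of the E2F site, TGACGTCA for the cyclic AMP response element (CRE), and CTCGCGAG, a palindrome found in some divergent promoters. The TATA box was searched as TATAAA. A match is a description of the letters, not evidence of binding. The first set shows 3 pairs long known to share a promoter, at chr11:101551956-101552106, chr17:34187331-34187555 and chr7:140882310-140882393. All 3 were called in every list. The Brca1/Nbr1 stretch holds 2 short ETS matches and 1 CCAAT box, and the Sirt3/Psmd13 stretch of 84 bases holds none of the strings.
Brca1/Nbr1: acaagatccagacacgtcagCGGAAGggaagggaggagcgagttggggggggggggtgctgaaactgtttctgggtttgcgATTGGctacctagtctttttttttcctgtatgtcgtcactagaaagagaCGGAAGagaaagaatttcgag
Psmb9/Tap1: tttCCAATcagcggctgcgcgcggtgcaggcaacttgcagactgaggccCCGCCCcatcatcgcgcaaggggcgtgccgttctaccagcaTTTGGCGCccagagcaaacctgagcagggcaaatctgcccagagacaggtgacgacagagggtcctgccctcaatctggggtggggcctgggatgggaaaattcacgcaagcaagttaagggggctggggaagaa
Sirt3/Psmd13: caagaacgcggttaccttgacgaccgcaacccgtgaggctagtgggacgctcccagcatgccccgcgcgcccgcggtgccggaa

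The second set shows pairs whose shared region was called in continuous E2 and not at 120 h, at chr11:93885767-93885849, chr12:102743662-102743718 and chrX:134601006-134601178. They were taken, after their classes were known, as the widest such regions with an eligible stretch. The 57 bases between Moap1 and Tmem251 hold 1 CRE and 1 short ETS match, and the 173 bases between Gla and Hnrnph2 hold 2 CCAAT boxes.
Utp18/Mbtd1: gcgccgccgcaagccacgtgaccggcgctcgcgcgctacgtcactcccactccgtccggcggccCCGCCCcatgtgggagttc
Moap1/Tmem251: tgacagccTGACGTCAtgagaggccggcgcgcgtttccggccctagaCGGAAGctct
Gla/Hnrnph2: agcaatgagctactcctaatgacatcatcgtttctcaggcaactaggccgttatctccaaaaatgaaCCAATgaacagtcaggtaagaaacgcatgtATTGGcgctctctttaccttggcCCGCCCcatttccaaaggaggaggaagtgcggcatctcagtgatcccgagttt

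The third set shows the opposite class, called at 120 h and not in continuous E2, at chr14:47276862-47276919 and chr19:18631814-18632015, chosen in the same way. The G and C shares were 84.5% at Wdhd1/Socs4 and 68.8% at Ostf1/Nmrk1. At the pairs of the set before they were 75.9% (Utp18/Mbtd1), 64.9% (Moap1/Tmem251) and 48.0% (Gla/Hnrnph2), so the classes overlapped. A further stretch of the 120 h class chosen in this way, Atg2b/Gskip, is not printed. Its share was 55.6%, and it holds none of the strings.
Wdhd1/Socs4: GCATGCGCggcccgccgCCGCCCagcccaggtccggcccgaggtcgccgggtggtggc
Ostf1/Nmrk1: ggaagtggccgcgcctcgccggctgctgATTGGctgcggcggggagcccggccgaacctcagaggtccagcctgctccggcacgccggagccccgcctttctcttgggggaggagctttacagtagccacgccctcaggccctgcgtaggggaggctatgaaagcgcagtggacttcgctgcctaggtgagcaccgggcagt

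The fourth set shows a pair of histone H2A/H2B promoters on chromosome 13 that went opposite ways between the end points, at chr13:21753913-21754075 (H2ac15/H2bc15, called in E2 only of the end points) and chr13:22042950-22043197 (H2ac11/H2bc11, called at 120 h only of the end points). Both are rich in CCAAT boxes, with 3 in the first and 5 in the second, which also holds a CRE.
H2ac15/H2bc15: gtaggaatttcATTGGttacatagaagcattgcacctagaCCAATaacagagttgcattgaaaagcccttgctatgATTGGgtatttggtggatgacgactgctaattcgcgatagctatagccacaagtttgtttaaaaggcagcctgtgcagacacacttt
H2ac11/H2bc11: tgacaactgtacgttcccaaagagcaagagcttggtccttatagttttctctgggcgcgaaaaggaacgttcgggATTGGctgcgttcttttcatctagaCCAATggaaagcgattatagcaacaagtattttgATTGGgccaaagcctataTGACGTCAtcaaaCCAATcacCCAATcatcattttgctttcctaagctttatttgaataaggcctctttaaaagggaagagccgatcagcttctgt

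Most shared-boundary regions were open in every condition. They were called in 1195, 1181, 1159, 1151, 1203 and 1045 of the 1355 regions, or 88.2%, 87.2%, 85.5%, 84.9%, 88.8% and 77.1%. Over the whole union the same shares were 82.1%, 71.4%, 61.9%, 55.9%, 59.5% and 49.7%. Only the 120 h list stood clearly below the others at shared boundaries, whereas over all regions the share was already lower after 24 h. As the lists shortened, these regions therefore made up more of what was called, 9.08% of the regions called in continuous E2 and 13.1% of those called at 120 h. In all 6 lists 824 regions were called (60.8%, 58.2 to 63.4), against 32.8% of the union and 50.7% of regions at exactly 1 gene. The difference from the latter was 10.1 points (7.18 to 12.9). Only 48 regions (3.54%) were called in a single list, against 7.17% at exactly 1 gene and 19.8% of the union.

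**Figure D1:**
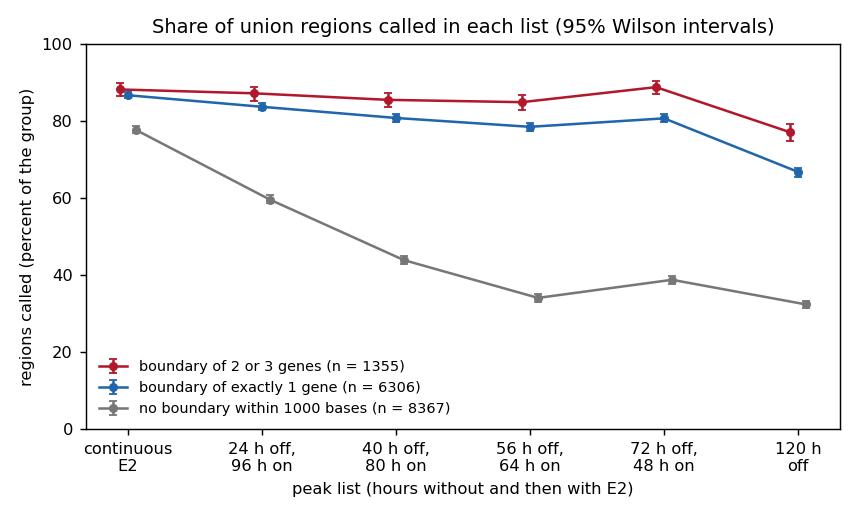
Share of union regions called in each of the 6 lists (percent) for regions at a boundary of 2 or 3 genes, at a boundary of exactly 1 gene and away from boundaries. Points are shares and bars are 95% Wilson intervals; the shared-boundary points lie between 77.1% and 88.8%, while regions away from boundaries lie well below them in every list.

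Regions were classed by the end points as kept (called in continuous E2 and at 120 h), lost (E2 only), gained (120 h only) or neither. Of the shared-boundary regions 948 were kept, 247 lost, 97 gained and 63 in neither. The lost share was 20.7% of the 1195 called in E2 (18.5 to 23.1), against 50.6% over the whole union, 30.7% at exactly 1 gene and 72.9% away from boundaries. The difference from regions at exactly 1 gene was -10.0 points (-12.5 to -7.35). The gained share was 9.28% of the 1045 called at 120 h, against 18.4% over the union, and differed from the 9.95% at exactly 1 gene by -0.670 points, with an interval of -2.54 to 1.43 that includes 0. The gained share depended on how peaks were matched, at 18.9% with 50% reciprocal overlap, 18.5% with the wider peaks of each list and 23.5% with lists cut to equal length by width. At equal length 179 regions were lost and 245 gained. Regions in neither end point were 4.65% of the shared-boundary regions, against 8.71% of the union.

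The lost regions differed in which add-back lists held a peak. Of the 247, 181 were called after 24 h of withdrawal with add-back, 165 after 40 h, 138 after 56 h and 145 after 72 h (73.3%, 66.8%, 55.9% and 58.7%). Thus a majority still had a peak in the group with the longest withdrawal followed by add-back. At exactly 1 gene the corresponding shares of lost regions were 74.5%, 61.1%, 51.2% and 50.6%. Over the union they were 63.2%, 42.5%, 27.0% and 26.9%. For 82 of the 247 (33.2%) the 120 h list was the only list without a peak. This compares with 32.3% of lost regions at exactly 1 gene and 15.9% of those of the union. A further 25 (10.1%) were called in continuous E2 alone, against 15.7% at exactly 1 gene and 29.5% over the union. A single switch from called to not called along the 6 lists described 164 (66.4%). The share was 76.1% of lost regions at exactly 1 gene and 84.2% of those of the union. Of the 97 gained regions, 59, 67, 81 and 89 were called in the 4 add-back lists (60.8%, 69.1%, 83.5% and 91.8%). Gained regions at exactly 1 gene had 55.4%, 71.1%, 73.7% and 85.2%, and those of the union 30.5%, 39.7%, 47.6% and 64.1%. The continuous E2 list was the only one lacking 44 of the 97 (45.4%, against 40.3% at exactly 1 gene and 21.7% over the union). At 120 h alone 3 were called (3.09%, against 8.83% at exactly 1 gene and 31.2% over the union).

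A region can also be missing from 1 list in the middle of the series, which shows how often a call is absent with peaks on both sides. Among shared-boundary regions called in the lists before and after, 65 of 1066 (6.10%) were absent from the 24 h list, 63 of 1044 (6.03%) from the 40 h list, 73 of 1095 (6.67%) from the 56 h list and 15 of 983 (1.53%) from the 72 h list. The same shares at exactly 1 gene were 6.23%, 6.45%, 6.67% and 2.88%. For shared-boundary regions absent from these 4 lists the median width in the preceding list was 1113, 839, 839 and 701 bases. For those called in them it was 986, 880, 789 and 684 bases. Of shared-boundary regions called in the 5 other lists, 5.07% (3.80 to 6.74) were absent from continuous E2 and 9.05% (7.35 to 11.1) from 120 h. For the 4 add-back lists the share was 1.08% to 4.07%. What part of the lost and gained classes such absences make up was not tested. At exactly 1 gene the share absent from continuous E2 alone was 5.02% (4.33 to 5.81), and from 120 h alone 14.5% (13.4 to 15.7).

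The arrangement of the paired genes separated the regions further. Strand was known for both genes at 1025 of the 1355. Of these, 504 (49.2%) had head-to-head starts with the genes apart and 269 (26.2%) head-to-head starts with overlapping genes. A start next to an end was found at 204 regions with the genes on the same strand and at 14 with the genes on opposite strands. In 25 regions the nearest boundaries were starts on the same strand, and in 9 they were a pair of ends. The starts that lay apart were close, with a median gap of 92.5 bases (quartiles 44.8 and 202), and 405 of 504 gaps (80.4%) were at most 250 bases. The midpoint of a shared-boundary region lay a median of 91.0 bases from the nearest boundary and 252 bases from the second, whereas regions at exactly 1 gene had theirs 144 bases away. The limit of the rule fell between the Pnpla6/Mcoln1 region, 998 bases from its second boundary, and the Secisbp2/Cks2 region, 1002 bases from its second, which is not a member.

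Head-to-head regions were lost least often. Of 706 called in E2, 111 were lost (15.7%, 13.2 to 18.6). At regions with the start of exactly 1 gene the share was 29.0%, a difference of -13.3 points (-16.1 to -10.1), a comparison chosen after the data were seen. It was 29.2% of 178 at regions with a start and an end, a difference of -13.5 points (-21.0 to -6.67). Regions with a start and an end did not differ detectably from a lone start (0.239 points, -6.10 to 7.43). All 6 lists held 67.3% of head-to-head regions, 50.5% of start-and-end regions and 52.3% of lone starts. Gained shares were 6.89% head-to-head and 12.5% for a start and an end, against 9.68% for a lone start, from which the head-to-head share differed by -2.80 points (-4.80 to -0.371). Genes apart and genes overlapping had lost shares of 14.2% and 18.5%, with a difference of 4.36 points (-1.22 to 10.4). Among their lost regions, however, 80.0% of those with genes apart and 50% of those with overlapping genes were still called after 72 h of withdrawal with add-back, a difference of -30.0 points (-46.0 to -12.1).

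**Figure D2:**
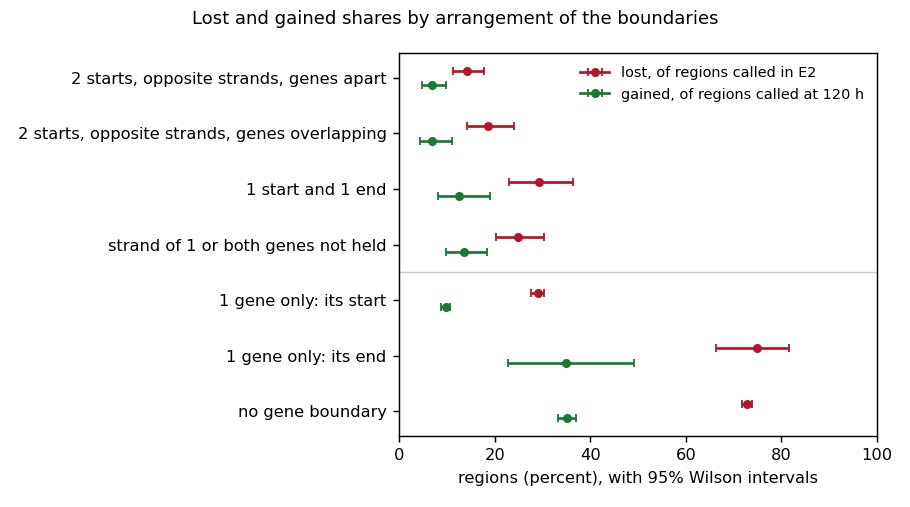
Lost share (red, percent of regions called in continuous E2) and gained share (green, percent of regions called at 120 h) by arrangement of the boundaries, with 95% Wilson intervals. Rows above the grey line are shared boundaries; head-to-head regions have the lowest lost shares, 14.2% and 18.5%, while a lone gene end reaches 74.8%.

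Wider E2 peaks were lost less often up to the fourth of 5 width classes of equal number over all regions called in E2, and shared boundaries hold wider peaks (median 988 bases in E2, against 948 at exactly 1 gene). The lost shares of shared boundaries within those classes, from narrow to wide, were 42.0%, 26.6%, 20.7%, 15.5% and 18.7%. Regions at exactly 1 gene had 59.9%, 40.9%, 25.5%, 23.2% and 28.4%, so the shared boundaries were lower in each class. Head-to-head regions had 45.5%, 20%, 18.6%, 11.3% and 13.6%, against 54.8%, 38.3%, 24.2%, 22.7% and 27.5% at lone starts. The width classes were added after the data were seen.

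Regions that stayed open became narrower. At the 824 called in all 6 lists the median peak width was 990, 890, 798, 692, 688 and 655 bases. The 120 h peak was narrower than the E2 peak at 812 of these (98.5%), and the median ratio of the widths was 0.679. At exactly 1 gene the corresponding values were 98.7% and 0.666, so narrowing was not particular to shared boundaries. A peak's width depends on how many reads a library holds as well as on the chromatin, and the depth behind these lists is unknown. Narrowing seldom uncovered a start. At the 520 head-to-head regions called in all 6 lists, the peak covered both starts at 486 (93.5%) in continuous E2 and at 448 (86.2%) at 120 h. Of 556 kept head-to-head regions that covered both starts in E2, 508 (91.4%) still did at 120 h, 45 covered 1 start and 3 covered none.

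**Figure D3:**
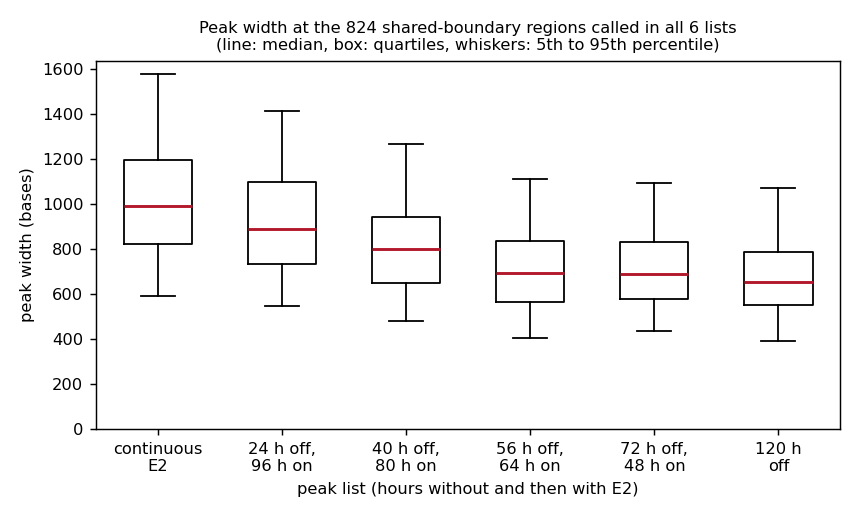
Peak width in bases at the 824 shared-boundary regions called in all 6 lists, by list. Lines are medians, boxes quartiles and whiskers the 5th and 95th percentiles; the median goes from 990 bases in continuous E2 to 692 bases at 56 h and 655 bases at 120 h.

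Of 20 gene pairs with a shared promoter on record in the literature, 15 had a shared-boundary region, and 12 of these were called in all 6 lists. By the end points, 13 of the 15 were kept. At each of those 13 the 120 h peak was narrower than the E2 peak. The same held at 812 of the 824 shared-boundary regions called in all 6 lists. Over all 1355 shared-boundary regions 948 were kept and 824 were called in all 6 lists. Over the 773 head-to-head regions these counts were 595 and 520. Whether the documented pairs differ from these was not tested. The region of Son, a splicing cofactor, and Gart, a purine synthesis enzyme (chr16:91646755-91648436), had peaks of 1619, 1507, 1447, 1448, 1444 and 1363 bases. At Nbr1, an autophagy receptor, and Brca1, which acts in homologous recombination (chr11:101551713-101553067), they were 1238, 1291, 1180, 1055, 1191 and 1036 bases. These stayed wide, whereas the region of Atm, the DNA damage kinase, and Npat, a histone gene coactivator (chr9:53536262-53537477), went from 1216 to 671 bases. The mitochondrial chaperonins Hspd1 and Hspe1 (chr1:55087418-55088590) had 1173 bases in E2, no peak after 24 h, and then 913, 898, 907 and 892 bases. Surf1, a cytochrome oxidase assembly factor, and Surf2 (chr2:26916297-26916918) had 622 bases in continuous E2 and no peak in any other list. The histidyl-tRNA synthetases Hars and Hars2 (chr18:36782768-36783884) had a peak in all lists but that at 120 h. The pairs Prkdc/Mcm4, Tk1/Afmid and Col4a1/Col4a2 had no region at either gene, and Nudt1/Mrm2 and Rangap1/Zc3h7b had regions that did not meet the rule.

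**Figure D4:**
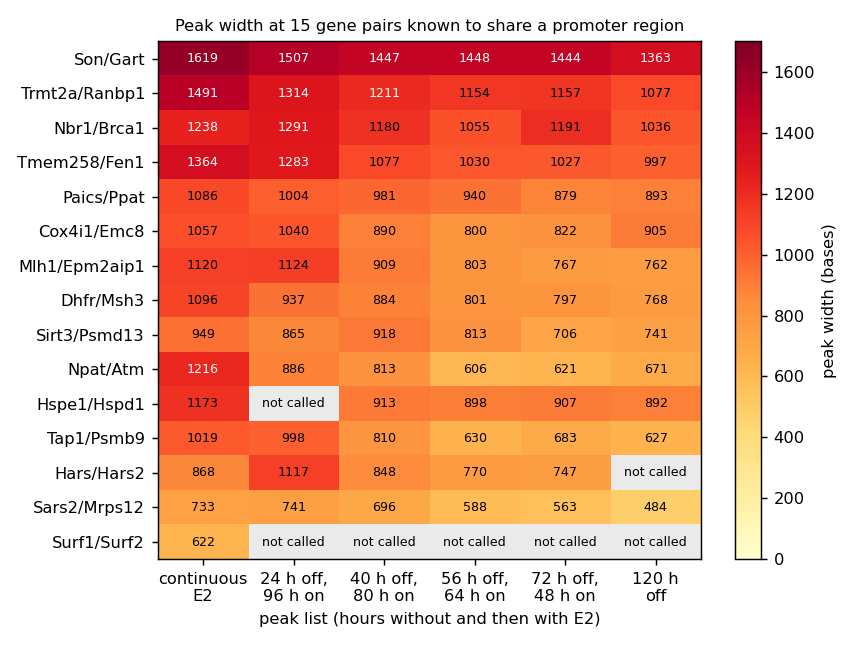
Peak width in bases in each list at the 15 gene pairs known to share a promoter that have a shared-boundary region; grey cells have no peak. Colour follows width on a linear scale from 0; 12 rows have a peak in all lists, and Surf1/Surf2 has one only in continuous E2.

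Among genome maintenance genes, shared boundaries were mostly kept. Of 44 regions at 45 DNA replication and repair genes, 39 were kept, 3 lost and 2 gained, so that 7.14% of the 42 called in E2 were lost. At regions of exactly 1 such gene the share was 8.16%, and intervals overlapped (2.46 to 19 against 3.22 to 19.2). The replicative helicase subunit Mcm7, which faces Ap4m1 (chr5:138170987-138172469), had peaks of 1483, 1468, 1423, 1396, 1394 and 1307 bases. Lig4, the ligase of non-homologous end joining, faces Abhd13 across 36 bases (chr8:9976121-9978045), where the peak was 1886 bases in E2, 392 bases after 40 h and 696 bases at 120 h. Lost regions lay at the fork protector Timeless (with Mip, called in E2 and after 40 and 72 h), at the polymerase epsilon subunit Pole2 (with Klhdc1) and at the helicase Recql4 (with Lrrc14). The latter 2 lacked a peak at 120 h alone. Both gained regions, at Pole (with Pxmp2), the catalytic subunit of polymerase epsilon, and at the origin factor Orc6 (with Vps35), lacked a peak in continuous E2 alone, with 1085 and 967 bases after 24 h.

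For the cell cycle, 19 of 24 regions were kept, 3 lost and 1 gained. The lost share was 13.6% of 22 (4.75 to 33.3), against 31.5% of 54 at exactly 1 gene (20.7 to 44.7) and 20.7% over all shared boundaries. Kept regions included those of the mitotic kinase Aurka, overlapping head-to-head with Cstf1 (chr2:172370168-172371372, 1205 bases in E2 and 649 at 120 h), of the condensin subunit Smc4 with Ift80 (chr3:69004175-69006057, 1883 and 835 bases), and of Dbf4, the activator of Cdc7, with Slc25a40. The mitotic transcription factor Foxm1 shares its lost region with Rhno1 (chr6:128362351-128363442), where peaks of 1092, 858, 864, 744 and 740 bases were followed by none at 120 h. The region of E2f4, a repressive E2F factor, and Exoc3l was lost too, as was that of the kinesin Kif20a and Brd8. Cenpx, a kinetochore protein, with Lrrc45, was gained and called from the 40 h list on.

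Of 31 regions at mitochondrial ribosomal protein genes 27 were kept, 2 lost and 1 gained, so 6.90% of 29 called in E2 were lost (1.91 to 22). At regions of exactly 1 such gene 14 of 31 were lost (45.2%, 29.2 to 62.2). This was the widest such gap among the 14 lists and was picked out after its values were seen. Mrpl40, head-to-head with the histone chaperone Hira (chr16:18876142-18878089), had 1948, 1597, 1303, 1054, 869 and 1021 bases. The lost regions were those of Mrpl43 and the mitochondrial helicase Twnk (1368 bases in E2) and of Mrpl21 and Ighmbp2 (865 bases). Respiratory chain genes had 41 regions, of which 34 were kept and 6 lost, or 15% of 40 (7.06 to 29.1) against 26.8% of 41 at exactly 1 gene. The complex III gene Uqcrh, with Lrrc41, had a peak of 1728 bases in E2 and 1056 at 120 h. The ATP synthase gene Atp5j, which overlaps the ETS factor gene Gabpa, had 1575 and 1098 bases. Lost regions lay at the complex I genes Ndufs3 (with Kbtbd4) and Ndufb11 (with Rbm10, on the X chromosome), at the cytochrome oxidase assembly factor Cox11 (with Stxbp4), and at Uqcrb.

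Genes of protein synthesis and turnover had mostly kept regions, as did shared boundaries as a whole (948 of 1355). Over all shared boundaries 20.7% of regions called in E2 were lost, and the gene lists below lay on both sides of this share. Cytosolic ribosomal protein genes had 20 regions, 17 kept, 2 lost and 1 gained, and the lost share was 10.5% of 19 called in E2 against 8.16% of 49 at exactly 1 gene. Rpl41 with Zc3h10 (chr10:128547412-128549424) had the widest E2 peak among the kept, 2013 bases, and 1021 bases at 120 h. Rpl7 with Rdh10 was lost after peaks of 1967, 1955 and 1901 bases in the first 3 lists. Rpl36 with Lonp1 was lost from a narrow 338 bases, and Rpl9 with Lias was gained. Of 12 proteasome regions 10 were kept and 1, Psmg2 with Cep76, was lost, or 9.09% of 11 against 14.8% of 27 at exactly 1 gene. The 20S subunit Psmb1, with the TATA-binding protein gene Tbp (chr17:15498010-15500173), had 2078, 1281, 609, 517, 551 and 476 bases, a stronger narrowing than the median. Of 13 tRNA synthetase regions 9 were kept, 3 lost (Vars, Iars2 and Hars) and 1 gained (Vars2), a lost share of 25% of 12 (8.89 to 53.2) against 16.7% of 18 at exactly 1 gene. A list of translation factor genes, which also took in enzymes named after such factors, had 20 regions. Of these, 14 were kept, 3 lost and 2 gained. The lost share was 17.6% of 17 called in E2, against 15.4% of 39 at exactly 1 gene. The kept ones included Eif5b with Txndc9 (1538 bases in E2, 1184 at 120 h). All 3 lost regions lay at such enzymes and not at a translation factor. They were Eef1akmt3 (with Mettl1), Eef1akmt4 and the double-stranded RNA kinase Eif2ak2. The region of Eif2ak2 and Gm26637 had 949 and 569 bases in the first 2 lists.

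At splicing and RNA-binding genes 36 of 42 regions were kept, 3 lost and 3 gained. The lost share was 7.69% of 39 (2.65 to 20.3), against 24% of 50 at exactly 1 gene (14.3 to 37.4). The longest merged region was that of Hnrnpdl with Enoph1 (chr5:100038366-100040467), with 2022, 2024, 1785, 1718, 1742 and 1757 bases. Hnrnpa2b1 with the heterochromatin protein gene Cbx3 (chr6:51469026-51471052) had 2027 bases in E2 and 1104 at 120 h, and no call after 56 h. Lost regions lay at Hnrnpul2 (with Ttc9c), Hnrnph2 (with Gla) and the U2 snRNP gene Sf3b3 (with Cog4). Of the gained, Hnrnpd and Prpf4 had peaks in 3 lists each. The third, Ddx5, an RNA helicase, with Cep95 (chr11:106787583-106789354), had a peak of 1772 bases at 120 h and none elsewhere. For chromatin regulators 11 of 15 regions were kept, 2 lost and 1 gained, with 15.4% of 13 lost against 18.5% of 54 at exactly 1 gene. Chd8 with Supt16, a FACT subunit, went from 1681 to 751 bases. The lost region of Men1, which encodes the MLL cofactor menin, with Map4k2 (chr19:6340047-6341519), had 1473 bases in E2, none after 24 h, then 1257, 927 and 877 bases and none at 120 h.

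Clustered histone genes had 3 of 15 regions called in all 6 lists. The 15 regions held 32 genes and were called 7, 10, 11, 13, 15 and 10 times along the lists. Thus all 15 were called after 72 h of withdrawal with 48 h of add-back, and fewer than that at either end. Only 4 were kept, while 3 were lost, 6 gained and 2 called in neither end point. Over all shared-boundary regions the counts peaked in the same list but varied much less, between 1045 and 1203 of 1355. H3c1/H4c1 (chr13:23760827-23762693) was called throughout and went from 1864 to 560 bases. H2bc9/H3c7 (chr13:23542767-23544711) was the widest, with 1945 bases in E2, none after 24 h and 1413 bases at 120 h. The lost H2bc3/H3c3 region had 1611, 1749, 1499, 1103 and 1516 bases before its absence at 120 h. The gained H2bc11/H2ac11 region, whose sequence is printed above, had 1039, 609, 666, 608 and 618 bases from the 24 h list on, and H2bc4/H2ac6 had 1257, 1174, 672, 691 and 631 bases. In all 6 gained regions the first list with a peak also had the widest. Peaks narrowed along the lists at shared boundaries as a whole too. At those called in all 6 lists the median went from 990 bases in continuous E2 to 655 bases at 120 h. The 12 regions at exactly 1 histone gene included 4 kept, 3 lost and 2 gained. Clustered histone genes are near-identical in sequence, and how reads that fit several places were handled is not given in the sources used here.

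Over the whole gene table, 2666 of 21883 protein-coding genes had a boundary at a shared-boundary region. Of 26 myeloid progenitor genes listed, 2 had one. Etv6, an ETS repressor needed by blood stem cells, with Gm46977 (chr6:134034900-134036263), was called throughout with 1364 to 1050 bases. Bmi1, a Polycomb protein needed for self-renewal, with Commd3 (chr2:18676455-18677542), had 1088, 1018, no call, 786 and 642 bases and none at 120 h. At exactly 1 gene, 11 of the 13 progenitor regions called in E2 were lost (84.6%, 57.8 to 95.7). Over all regions at exactly 1 gene the lost share was 30.7%. Of 63 granulocyte and phagocyte genes 3 had a shared-boundary region, and 2 are described. Cyba, a subunit of the NADPH oxidase, with Mvd (chr8:122432336-122433335), had 1000 bases in continuous E2 alone. Cd68, a macrophage scavenger receptor family member, with Eif4a1 (chr11:69666102-69666343), had narrow peaks of 202 and 242 bases in the 72 h and 120 h lists. No gene of the other-lineage list had a shared-boundary region.

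Chosen by width alone, the widest lost region joined the PBAF subunit gene Arid2 and Gm38469 (chr15:96285186-96287939). It had 2754, 2305, 2214, 741 and 702 bases, and no peak at 120 h. Lpxn, which encodes the adhesion protein leupaxin, with Zfp91 (chr19:12794777-12796897), had 2121, 2088 and 2038 bases in the first 3 lists and none after. These 2 differed along the lists, the first having much narrower peaks in the 56 h and 72 h lists and the second only wide ones. The lists are separate groups with unlike add-back times, so neither pattern is a course of loss. Zbtb1, a zinc finger regulator of lymphoid development, with Zbtb25, had 1912 and 2059 bases and then a peak only after 72 h (1161 bases). The semaphorin receptor gene Plxnb2 with Dennd6b had 1984 and 704 bases in the first 2 lists. Sgsm2 with the ribosome assembly gene Tsr1 was called in E2 and after 40 h, and Zdhhc14 with Gm52310 in E2 and after 24, 40 and 72 h.

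Trim28, the KAP1 corepressor, and Gm31649 held the widest gained region (chr7:13023165-13025097), and had 1923, 1890, 1419, 1049 and 975 bases from the 24 h list to 120 h. Mepce, a 7SK RNA capping enzyme, with Zcwpw1 (chr5:137785934-137787836), had 1902, 1768, 1818, 1760 and 1369 bases. Both lacked a peak in continuous E2 alone. Rsf1, a chromatin remodelling subunit, with Aamdc, and Armc5 with 9130023H24Rik were called from the 40 h list on, with 1661 and 1420 bases there and 783 and 821 bases at 120 h. Cdca3, a mitotic entry factor, with the deubiquitinase Usp5, was called from 56 h on with 1335, 1410 and 1257 bases. Among the widest kept regions, the stress factor gene Ddit3 with Mbd6 (chr10:127288679-127291173) had 2493 bases in E2 and 1508 at 120 h. Sbds, a ribosome maturation factor, with Tyw1, had 2344 and 1002 bases, and Sec23a, a coat protein of vesicles, with the SMN complex gene Gemin2, had 2113 and 631 bases.

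On the X chromosome, shared boundaries were lost more often, an observation made after the data were seen. Of 25 called in E2 there, 14 were lost (56.0%), against 233 of 1170 on the autosomes (19.9%), a difference of 36.1 points (17 to 53.6). X-linked regions at exactly 1 gene showed 54.4% against 30.0% (24.3 points, 16.2 to 32.2). Away from boundaries the sign was the opposite, 58.4% against 73.2% (-14.8 points, -23.2 to -6.82). Of the 29 X-linked shared boundaries, 86.2%, 75.9%, 89.7%, 65.5%, 82.8% and 41.4% were called along the lists. They were below the autosomal share by more than counting error at 56 h (-19.9 points, -38.1 to -5.17) and at 120 h (-36.5 points, -52.5 to -18.5). The lost ones included Naa10/Renbp, with 868, 765, 539, 517 and 427 bases before 120 h, and Armcx6/Armcx3, called in continuous E2 alone. Leaving out the X chromosome kept the difference from regions at exactly 1 gene at -10.1 points.

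Promoter sequences, from 250 bases before to 50 after each start, were compared between sets. There were 1454 promoters at head-to-head regions, 4840 at regions with a lone start, and 1 for each of 17491 genes in the RefSeq table. In the first sets a gene counts once for each of its regions, with the promoter nearest to the region. In the last set the promoter listed first was taken. Paired promoters overlap, so they are not independent, the short ETS string lies within the long one, and the intervals for the 11 strings were not adjusted. Of paired starts that lay apart, 80.4% had a gap of at most 250 bases. There each window also takes in sequence next to the partner's start, and 1 match can count for both genes. A lone window holds no such partner. What part of the differences below this makes up was not tested. The short ETS string was found in 48.6% of head-to-head promoters, 36.3% of lone ones and 21.5% of all, and the long one in 15.5%, 9.71% and 5.29%. The differences between head-to-head and lone promoters were 12.3 points (9.37 to 15.2) and 5.76 points (3.80 to 7.87). YY1 matches were also more frequent, 8.60% against 5.41% (3.18 points, 1.69 to 4.85), as was the palindrome, 3.85% against 2.23%. SP/KLF matches were less frequent, 69.5% against 72.7% (-3.19 points, -5.91 to -0.556), and TATA boxes 4.61% against 6.03%. CCAAT boxes did not differ detectably (41.1% and 41.2%). The median ratio of observed to expected CpG was 0.860 head-to-head, 0.810 at lone starts and 0.576 over all promoters.

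Between lost and kept head-to-head regions, the CCAAT box differed most. It was found in 29.9% of 201 promoters at lost regions and 43.7% of 1134 at kept regions, a difference of -13.8 points (-20.4 to -6.56). Lone starts gave a like difference, 33.2% against 45.1% (-11.9 points, -15.0 to -8.65). For the short ETS string the head-to-head difference between lost and kept was -4.02 points with an interval including 0 (-11.4 to 3.47), whereas at lone starts it was -10.3 points (-13.4 to -7.20). The long ETS string went the other way head-to-head, 5.03 points (-0.301 to 11.3). Intervals excluded 0 head-to-head for NRF1 (-3.84 points, -6.28 to -0.0476), for form 2 of the E2F string (-2.56 points, -3.65 to -0.530) and for the TATA box (3.49 points, 0.327 to 8.09). The 201 and 1134 promoters come from 111 and 595 regions. Paired promoters overlap, so the intervals are likely too narrow, and those for NRF1 and the TATA box nearly reached 0. At lone starts the difference was -5.40 points for NRF1 (-6.79 to -3.87). Intervals there included 0 for form 2 of the E2F string (-0.00383 points, -0.932 to 1.11) and for the TATA box (1.03 points, -0.519 to 2.76). SP/KLF matches differed by -0.486 points head-to-head (-7.62 to 6.01) and by -11.2 points at lone starts (-14.3 to -8.09). The head-to-head and lone differences were not tested against each other.

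**Figure D5:**
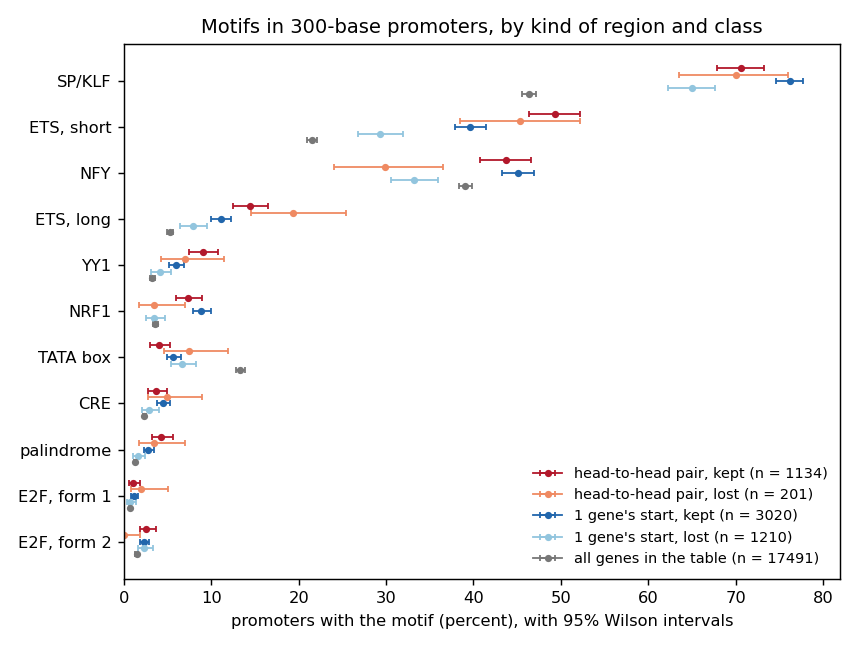
Share of promoters (percent) with a match to each of 11 motif strings, with 95% Wilson intervals, for head-to-head pairs and lone starts in kept and lost regions and for all promoters in the table. CCAAT (NFY) points for lost regions, 29.9% and 33.2%, lie left of those for kept regions, 43.7% and 45.1%.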

How the data were processed

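Peak positions from 12 ATAC-seq libraries (6 groups of 2) were used. Each group has 1 deposited list, which gives peak positions (chromosome, start, end) and nothing else. The submitters' processing notes name BWA, MACS2 2.0 and STAR 2.5 with no roles, and list the build mm9. How the 2 libraries of a group were combined is not given in the sources used here. The positions were checked against GRCm38: a boundary lay within 1000 bases of 50.6% to 68.0% of them, and of 5.83% to 6.54% once shifted by 200000 bases, so GRCm38 was used.

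Exact duplicates and intervals over 10000 bases were dropped and overlapping rows merged. A region was called in a list where they shared 1 base or more. Gene boundaries and names came from the RefSeq table of GRCm38.p6, and strand from its promoter table, which covers 17491 of 21883 protein-coding genes. The pair of a region is the 2 genes with the nearest boundaries. Shares have 95% Wilson intervals and differences Newcombe intervals. No test between groups was possible with 1 list each.

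The members, gene lists and motifs were chosen with earlier results of these data known. Regions named are the 8 widest lost, 8 widest gained and 6 widest kept, up to 4 per gene list and class, documented divergent pairs, the 3 widest called in add-back lists only, and those beside the 1000 base limit. Of these, some are given in counts only, and 2 items are not reported here. Merging, calling and membership were tested on simulated data. Alternatives are given at the end. Shares were computed in Python 3.11.15 with pandas 2.3.3 and numpy 2.4.6, intervals with scipy 1.17.1, and figures with matplotlib 3.10.9.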

Additional observations from a re-analysis of the deposited data

How the results depend on the processing

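The main values were 1355 regions, 20.7% lost, 9.28% gained, 60.8% in all 6 lists and a lost share -10.0 points from that of regions at exactly 1 gene. Under the 11 alternatives that difference was negative throughout, from -7.45 to -13.0 points. A window of 500 bases gave 17.4% lost and 64.3% in all 6 lists, and 2500 bases gave 25.4% and 56.3%. With 50% reciprocal overlap 29.1% were lost and 18.9% gained. With only the wider peaks of each list (its median width or more) the values were 32.2% lost, 18.5% gained, 38.7% in all 6 and -13.0 points. Lists shortened to equal length by width gave 18.3% lost, 23.5% gained and 50.5% in all 6, so that the gained share passed the lost share; equal lengths bring these shares together by construction. Gene starts only left 810 regions, with 16.7% lost, 7.24% gained and 66.4% in all 6. Of 54 shares and differences under alternatives, 38 moved by less than their interval. Of lost regions, 14.6 points more were called after 24 h than after 72 h, and 7.98 to 21.4 points more under the alternatives, with an interval that included 0 for the 500 base window, equal lengths and gene starts only. Comparison with lone starts, the width classes and leaving out the X chromosome were chosen after seeing the data. No paired analysis was possible because each group has only 1 list; nor could a library be left out. With no depth given, an absent call cannot be told apart from a peak below the calling threshold.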

Other observations

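Outside the named groups, 7 of the 63 shared-boundary regions in neither end point (11.1%) were called in all 4 add-back lists, against 8.31% over the union and 12.5% at exactly 1 gene. They included the region of the tumour suppressor gene Trp53 and Wrap53, whose peaks were 1414, 1165, 285 and 354 bases after 24, 40, 56 and 72 h of withdrawal, and that of the elongation factor gene Eef1b2 and the complex I gene Ndufs1, with 873, 833, 821 and 848 bases. These were picked after their values were seen. The widest regions called in add-back lists only were Tfr2/Actl6b and Ncor1/Pigl, with 1938 and 1747 bases after 24 h and no other call, and Pnpla6/Mcoln1, with 1596, 509 and 362 bases after 40, 56 and 72 h.

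Regions between a pair of gene ends numbered 9, of which 6 were lost, 1 kept, 1 gained and 1 in neither end point. Lost ones lay at Duoxa2/Duoxa1, which encode maturation factors of the dual oxidases, with 398 and 320 bases in the first 2 lists, and at Uba7/Inka1, with 1206, 1167, 1230, 819 and 403 bases before 120 h. At the end of exactly 1 gene 74.8% of 119 regions called in E2 were lost (66.3 to 81.7). Of the 28 regions with boundaries of 3 genes, 17 were kept, 6 lost, 1 gained and 4 in neither. Among the kept, Yrdc, 1110065P20Rik and Mtf1 shared a region with 1211 bases in E2 and 994 at 120 h.

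On chromosome 11, 20 of 94 shared-boundary regions called at 120 h were gained (21.3%, 14.2 to 30.6), against 14.5% of regions at exactly 1 gene there (11.1 to 18.8) and 21.6% of all regions there. Over all chromosomes the share at shared boundaries was 9.28%. The chromosome was picked after its values were seen.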
